A study of Saccharomyces cerevisiae with 24 samples.

Results

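The 10 genes described here encode the NAD-dependent deacetylases and the silencing and nucleolar proteins of budding yeast, Saccharomyces cerevisiae, that work with them. They are the 5 sirtuins SIR2, HST1, HST2, HST3 and HST4, the 3 silencing proteins SIR1, SIR3 and SIR4, the replication fork block protein FOB1 and the nucleolar protein NET1. They were taken by name and not for their values, and all 10 were among the 6664 genes of each of the 3 deposited tables. All 10 passed the filter on low values in each table and were tested, and HST4 was at the floor in both log-phase hst3 hst4 libraries.

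Sirtuins remove acetyl groups from lysines and consume NAD in doing so. With Sir3 and Sir4, Sir2 silences the mating-type cassettes and the chromosome ends, and with Net1 and the phosphatase Cdc14 it forms the RENT complex on the ribosomal DNA (rDNA) in the nucleolus. Sir1 helps to start silencing at the mating-type cassettes. Fob1 binds the replication fork barrier of the rDNA, stops forks there and recruits RENT. Hst1, the closest relative of Sir2, represses sporulation and NAD synthesis genes with Sum1 and Rfm1. Hst2 is mainly cytoplasmic. Hst3 and Hst4 take the acetyl group off newly made histone H3 after replication. In this organism Sir2 and Fob1 are textbook genes of replicative ageing, the loss of division capacity in mother cells.

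The samples were poly(A)+ RNA of diploids of the mother enrichment programme, in which oestradiol switches on a Cre recombinase driven by a daughter-specific promoter, so that new daughters stop dividing and the original mothers can be collected when old. All cells grew in YPD, and aged mothers were collected by a biotin label put on their cell walls before ageing, while log-phase samples were taken from the young culture. The 24 libraries fell into 3 tables that were scaled separately. The first held a mus81 mutant (Mus81 is a nuclease that resolves branched DNA at stalled forks) and its wild type (WT), with 2 libraries each at log phase, 24 h and 48 h. The second held a strain with a translocation between the right part of chromosome XII and chromosome V (XIIr<>V) and its control, with 1 library each at log phase, 24 h and 48 h. Both of these strains were a/a diploids with Tom70-GFP and without I-SceI, and the control carried ADE2 and the pGST-V-U construct. The third held an hst3 hst4 mutant with 2 aged and 2 log-phase libraries and its WT with 1 of each. Its aged libraries are 48 h in their titles but 24 h in their age label, and its genotype label reads wild type throughout, so the titles were followed and these libraries are called aged. Nothing in the labels says whether replicates were separate cultures, so p-values measure the spread between these libraries, which may be technical.

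Recovered depth was 1656535 to 11330955 reads per library in the mus81 table, 1798756 to 5719392 in the translocation table and 3964134 to 8557984 in the hst3 hst4 table. Replicates correlated at 0.967 to 0.992 across features, lowest for WT at 24 h. The second 24 h library of WT was the shallowest of all, with 1656535 reads. MUS81 itself had 0 to 10 reads in mus81 libraries and 39 to 161 reads in WT libraries. Messages of 12 daughter-enriched genes served as markers of young cells, and none was at 0 in any library. Their summed level was 1773 to 1963 RPM (reads per 1000000) at 48 h and 2750 to 3247 at log phase in mus81 mothers, and 2247 to 2791 at 48 h and 3053 to 3928 at log phase in WT mothers. Of the 12, 11 fell at 48 h in each of these strains, and scaled to total reads 9 fell and 1 rose in mus81 and 8 fell and 1 rose in WT. In the translocation table the sum was 2764 at 48 h and 2549 at log phase in the translocation strain, and 3039 and 2365 in the control, and 1 of the 12 fell, while scaled to total reads 0 fell and 1 rose. In bulk RNA, fewer cells of a type and less RNA per cell cannot be told apart, and the part of the remaining daughters in the results below was not tested. The control library at log phase of the translocation table stood apart. Against the translocation library of the same age, its genes over 3000 bases had a median log2 difference of -0.61 and its genes up to 1000 bases one of 0.30.

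The genes lie apart from each other. In build R64, SIR2 is on chromosome IV (376757 to 378445, minus strand), as are FOB1 (676102 to 677802, plus strand), HST4 (842337 to 843449, plus strand) and SIR4 (917571 to 921647, plus strand). HST1 (200368 to 201879, minus strand) and HST3 (378219 to 379562, plus strand) are on chromosome XV. HST2 is on chromosome XVI (525810 to 526883, minus strand), NET1 on chromosome X (295245 to 298814, plus strand) and SIR1 on chromosome XI (640540 to 642504, plus strand), where it ends 24312 bases from the chromosome end. SIR3 is on chromosome XII (1019315 to 1022251, minus strand), to the right of the annotated rRNA genes at 451786 to 489469. None of the 10 coding sequences shared a stretch of 50 bases with another place in the genome. SIR2 and NET1 overlap the antisense features YDL041W and APQ13, which had at most 8 and 11 reads in any library.

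Upstream windows of 200 bases, ending 100 bases before the coding start, were read from the RefSeq genome R64 for 4 genes. HST2 and SIR1 are shown because they rose at 48 h in mus81 and WT mothers, and SIR2 and FOB1 as the textbook ageing genes among those that fell. NET1 fell as well and its window is not shown. Capitals mark the stress response element AGGGG on either strand (CCCCT is its reverse complement). HST2 (chrXVI:526984-527183, minus strand), SIR1 (chrXI:640240-640439, plus strand), SIR2 (chrIV:378546-378745, minus strand) and FOB1 (chrIV:675802-676001, plus strand) read, 5′ to 3′:
HST2: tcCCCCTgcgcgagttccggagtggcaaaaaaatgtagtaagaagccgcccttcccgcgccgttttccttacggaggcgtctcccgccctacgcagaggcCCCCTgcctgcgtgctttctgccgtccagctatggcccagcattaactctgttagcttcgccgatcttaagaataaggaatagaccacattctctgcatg
SIR1: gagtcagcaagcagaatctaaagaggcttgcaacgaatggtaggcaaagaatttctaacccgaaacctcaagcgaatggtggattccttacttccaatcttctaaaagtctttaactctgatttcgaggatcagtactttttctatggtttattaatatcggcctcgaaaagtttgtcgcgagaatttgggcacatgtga
SIR2: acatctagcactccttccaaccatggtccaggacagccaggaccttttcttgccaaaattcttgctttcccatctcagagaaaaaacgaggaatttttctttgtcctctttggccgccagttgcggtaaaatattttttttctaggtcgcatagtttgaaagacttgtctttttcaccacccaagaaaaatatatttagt
FOB1: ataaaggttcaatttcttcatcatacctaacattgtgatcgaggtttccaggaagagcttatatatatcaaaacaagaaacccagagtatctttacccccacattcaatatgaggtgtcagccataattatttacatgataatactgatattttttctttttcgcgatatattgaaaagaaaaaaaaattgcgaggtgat
The HST2 window held 2 copies of AGGGG, and the windows of HST4 and SIR3 held it as well. The motif was present in 15.9% of 6663 windows of the same kind, so 3 of 10 members is a description and no test. The cell-cycle element ACGCGT (2.7% of windows), the forkhead element GTAAACA (4.59%) and the core CACAAAA of the middle sporulation element (4.77%), each searched on both strands, were in no member's window.

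Levels can be set side by side between genes only per length. In RPKM (reads per kilobase per 1000000 reads), the order at log phase was led by HST1, with 77.1 ± 0.106 in mus81 and 82.6 ± 1.4 in WT, followed by NET1 with 67.9 ± 1.22 in mus81 and 75.6 ± 6.67 in WT (SD, n = 2 each). HST2, SIR2, FOB1 and HST3 formed a middle group, in mus81 between 35.2 and 44.8 RPKM and in WT between 35.8 and 46.1 RPKM. Within that group SIR2, at 38.2 ± 4.76 RPKM in WT, FOB1, at 38.1 ± 0.537, and HST3, at 35.8 ± 0.177, differed by less than the spread of SIR2, and HST2, at 46.1 ± 8.33, overlapped it. SIR4 at 19.8 ± 0.622 and SIR3 at 15.9 ± 1.05 RPKM in WT came next. HST4 at 10.95 ± 1.96 and SIR1 at 5.97 ± 0.776 RPKM were the lowest of the 10. The median of all features in WT at log phase was 26.6 RPKM, so 6 of the 10 lay above it. At 48 h the order differed: HST2 led with 132 ± 0.566 RPKM in mus81 and 118 ± 0.778 in WT, ahead of HST1 with 85.3 ± 1.11 in mus81 and 77.1 ± 9.0 in WT. SIR1 remained last at 48 h, with 21.0 ± 4.46 RPKM in mus81 and 18.8 ± 3.46 in WT.

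With age in mus81 and WT mothers, the transcripts of SIR2, HST1, SIR4, FOB1 and NET1 fell on the deposited scale and those of HST2 and SIR1 rose, in both strains at 48 h. In mus81 mothers, 9 of the 10 members passed limma's test at 48 h against log phase (adjusted p under 0.05), 3 higher and 6 lower. In WT mothers 7 passed, 2 higher and 5 lower. The background was high: 60.2% of all features passed in mus81 (30.7% higher and 29.5% lower) and 63.1% in WT (33.1% higher and 30.1% lower). In WT the 7 called members are near the share of all features. In mus81 the 9 called members are above it, as are the members called lower in both strains, and no test was made of this. All 10 members in mus81 and 8 in WT had libraries that did not overlap between 48 h and log phase, where 81.6% and 85.4% of all features did not. At 24 h against log phase, 7 members passed in mus81, 2 higher and 5 lower, where 52% of features did (26.3% higher, 25.7% lower), and 5 passed in WT, 1 higher and 4 lower, where 48.6% did (24.4% higher, 24.2% lower). Non-overlap at 24 h held for all 10 members in mus81 (79.3% of features) and 7 in WT (74.7%). These directions are on the authors' scale, and on recovered reads scaled to total reads the median feature stood at 0.83 in mus81 and 0.80 in WT at 48 h in place of 0.11 and 0.15.

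**Figure D1:**
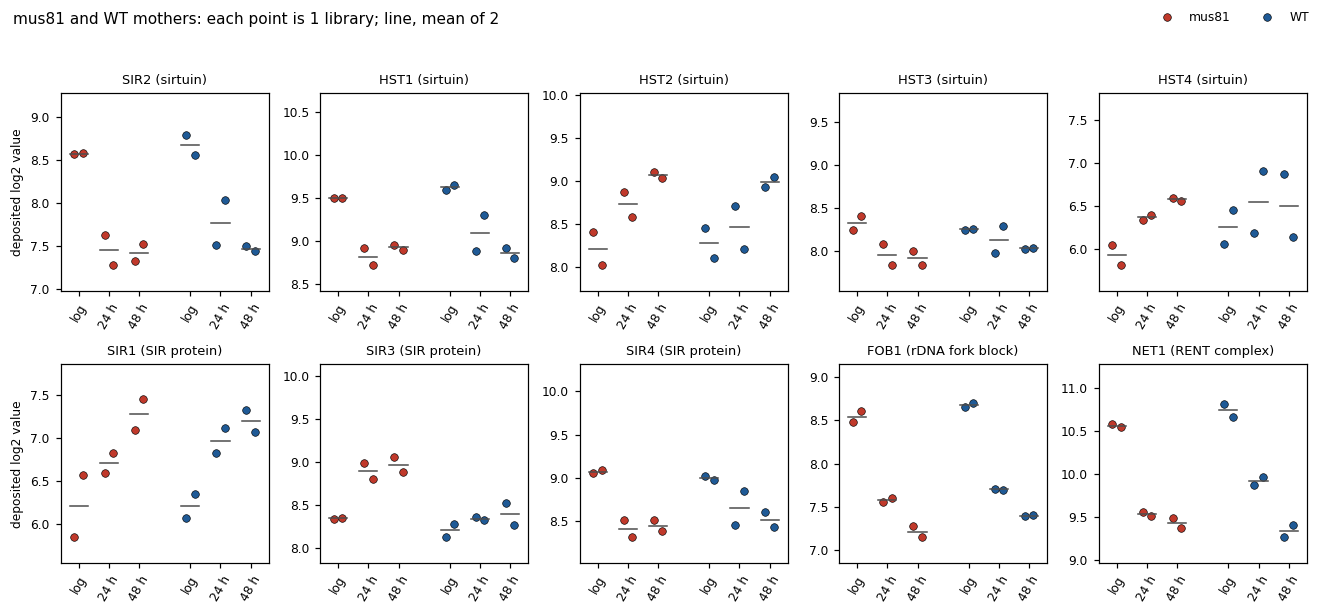
Deposited log2 value (y axis) of the 10 genes in mus81 (red) and WT (blue) mothers at log phase, 24 h and 48 h; each point is 1 library and each line the mean of 2. FOB1, NET1 and SIR2 lie lower in all 8 aged libraries than in the 4 log-phase libraries, and SIR3 separates mus81 from WT libraries at 24 h and 48 h; the scale is the authors', and scaled to total reads HST1, SIR4 and HST3 of mus81 and SIR4 and HST3 of WT turn upward at 48 h, and with quantile normalization HST4 turns downward.

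SIR2, the deacetylase of silent chromatin, had log2 values of 8.57 and 8.58 at log phase, 7.63 and 7.28 at 24 h and 7.33 and 7.52 at 48 h in mus81 mothers. In WT mothers it had 8.79 and 8.55 at log phase, 7.52 and 8.03 at 24 h and 7.50 and 7.45 at 48 h. All 8 aged libraries were below all 4 log-phase libraries, and mus81 and WT overlapped at each age. At 48 h SIR2 was lower than at log phase by a log2 change of -1.15 ± 0.18 (SE) in mus81 (limma, adjusted p = 6.64e-05) and of -1.20 ± 0.18 in WT (adjusted p = 3.92e-05). Most of this was already there at 24 h, at -1.12 ± 0.18 in mus81 (adjusted p = 0.000126) and -0.90 ± 0.18 in WT (adjusted p = 0.000979). Scaled to total reads, the 48 h changes were -0.43 in mus81 (adjusted p = 0.0275) and -0.54 in WT (adjusted p = 0.0108), smaller but in the same direction. In the ranking of all features at 48 h, 9.84% in mus81 and 9.6% in WT lay lower than SIR2.

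HST1, the partner of Sum1 at sporulation genes, stood at 9.50 and 9.50 at log phase, 8.92 and 8.72 at 24 h and 8.96 and 8.90 at 48 h in mus81, and at 9.60 and 9.65, then 8.88 and 9.30, then 8.92 and 8.81 in WT. Its aged libraries lay below every log-phase library of both strains. The 48 h change was -0.57 ± 0.14 in mus81 (limma, adjusted p = 0.00203) and -0.76 ± 0.14 in WT (adjusted p = 0.000184), but scaled to total reads it was 0.15 in mus81 (adjusted p = 0.326) and -0.11 in WT (adjusted p = 0.474). At 24 h in WT its change of -0.53 ± 0.14 (adjusted p = 0.00492) was -0.33 without the first 24 h library of WT (adjusted p = 0.0517). It passed with quantile normalization, median centring and voom on upper-quartile reads, at -0.40 to -0.68 in mus81 and -0.55 to -0.89 in WT.

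FOB1, which holds the fork barrier, gave the steadiest fall. It had log2 values of 8.48 and 8.61 at log phase, 7.56 and 7.60 at 24 h and 7.28 and 7.15 at 48 h in mus81. In WT the values were 8.66 and 8.71 at log phase, 7.70 and 7.70 at 24 h and 7.39 and 7.40 at 48 h. Each later age lay below the earlier one without overlap in both strains. The change at 48 h was -1.33 ± 0.14 in mus81 (limma, adjusted p = 8.75e-07) and -1.28 ± 0.14 in WT (adjusted p = 1.03e-06), with 6.81% and 7.95% of all features lower. Scaled to total reads it was -0.60 in mus81 (adjusted p = 0.000741) and -0.63 in WT (adjusted p = 0.00074). The step between 24 h and 48 h was -0.37 ± 0.14 in mus81 (adjusted p = 0.134) and -0.30 ± 0.14 in WT (adjusted p = 0.13), and neither passed.

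NET1, the nucleolar scaffold of RENT, had 10.58 and 10.54 at log phase, 9.56 and 9.52 at 24 h and 9.48 and 9.37 at 48 h in mus81, against 10.82 and 10.66, 9.87 and 9.97, and 9.27 and 9.40 in WT. All aged libraries were below all log-phase libraries. The 48 h change was -1.13 ± 0.11 in mus81 (limma, adjusted p = 5.2e-07) and -1.40 ± 0.11 in WT (adjusted p = 6.87e-08), and scaled to total reads -0.41 (adjusted p = 0.00288) and -0.74 (adjusted p = 1.63e-05). In WT it also fell between 24 h and 48 h, by a log2 change of -0.58 ± 0.11 (adjusted p = 0.00251). It was the 1 member called in that comparison, where 21.8% of features passed (9.06% higher and 12.7% lower), and 4 members did not overlap, where 57.7% of features did not, but without the first 24 h library of WT 4 members passed (NET1, HST1, SIR2 and HST2), and scaled to total reads NET1 was at -0.29 (adjusted p = 0.0805). Leaving out the first 24 h library of WT leaves that group with the shallowest library alone, of 1656535 reads. In mus81 the step of NET1 between 24 h and 48 h was -0.11 ± 0.11 (limma, adjusted p = 0.648). No member passed between 48 h and 24 h in mus81 under limma, where 6.34% of features did (0.99% higher, 5.35% lower). In that comparison 2 members had an unadjusted p under 0.05, 0 passed with voom on reads scaled to the upper quartile and 2, HST2 and SIR1, with voom on total reads.

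HST2, the cytoplasmic sirtuin, moved the other way. It had log2 values of 8.41 and 8.02 at log phase, 8.87 and 8.58 at 24 h and 9.10 and 9.03 at 48 h in mus81, and 8.46 and 8.11, 8.71 and 8.22, and 8.93 and 9.04 in WT. The 4 libraries of 48 h were above the other 8. The 48 h change was 0.86 ± 0.18 in mus81 (limma, adjusted p = 0.000916) and 0.71 ± 0.18 in WT (adjusted p = 0.00355), and 1.56 and 1.37 scaled to total reads (adjusted p = 3.45e-07 and 2.34e-06). Without the second log-phase library of WT the WT change was 0.53 (adjusted p = 0.0504). At 24 h HST2 was called in mus81 (0.51 ± 0.18, adjusted p = 0.0293) and not in WT (0.18 ± 0.18, adjusted p = 0.424). That call ended without the second log-phase library (0.32, adjusted p = 0.263) or the first 24 h library of mus81 (0.37, adjusted p = 0.205), and the difference between strains in this change, 0.33 ± 0.26, did not pass (adjusted p = 0.975).

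HST3 and HST4, the deacetylases of newly made histone H3, had 1 call between them in the 4 comparisons of aged with log-phase mothers. HST3 lay between 7.83 and 8.41 across all 12 libraries. Its 48 h change was -0.41 ± 0.15 in mus81 (limma, adjusted p = 0.0289) and -0.22 ± 0.15 in WT (adjusted p = 0.218). Scaled to total reads it was 0.32 in mus81 (adjusted p = 0.0451) and 0.44 in WT (adjusted p = 0.0128), so its sign follows the scale. In mus81 it lay below the median of all features on both scales, which was 0.11 and 0.83. The mus81 call also ended without the second log-phase library (-0.32, adjusted p = 0.182) or the second 48 h library (-0.32, adjusted p = 0.158). HST4 had 6.05 and 5.81 at log phase and 6.59 and 6.56 at 48 h in mus81, and 6.07 and 6.45 at log phase and 6.87 and 6.14 at 48 h in WT. Its changes of 0.64 ± 0.28 in mus81 (adjusted p = 0.0596) and 0.25 ± 0.28 in WT (adjusted p = 0.46) did not pass, while scaled to total reads both did (1.33, adjusted p = 0.000149, and 0.85, adjusted p = 0.0092), and with quantile normalization they were -0.14 and -0.53. It rested on 40 to 121 reads per library.

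SIR1, which binds the silencers of the mating-type cassettes, had log2 values of 5.85 and 6.56 at log phase, 6.59 and 6.82 at 24 h and 7.09 and 7.45 at 48 h in mus81, and 6.07 and 6.35, 6.82 and 7.11, and 7.32 and 7.07 in WT. Every aged library was above every log-phase library of its strain, by little in mus81 at 24 h. The 48 h change was 1.06 ± 0.25 in mus81 (limma, adjusted p = 0.00166) and 0.99 ± 0.25 in WT (adjusted p = 0.00264). With quantile normalization both changes missed the threshold, at 0.53 (adjusted p = 0.0918) and 0.38 (adjusted p = 0.208), and scaled to total reads they were 1.85 and 1.62 (adjusted p = 1.55e-06 and 2.08e-05). SIR1 rested on 46 to 192 reads. In WT at 24 h its change of 0.76 ± 0.25 (adjusted p = 0.0195) was lost without the first log-phase library (0.61, adjusted p = 0.126) or the second 24 h library (0.62, adjusted p = 0.108).

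SIR4, the scaffold of the SIR complex, had 9.05 and 9.08 at log phase, 8.51 and 8.31 at 24 h and 8.51 and 8.38 at 48 h in mus81, against 9.02 and 8.98, 8.45 and 8.84, and 8.60 and 8.43 in WT. All aged libraries were below all log-phase libraries. At 48 h it changed by -0.62 ± 0.14 in mus81 (limma, adjusted p = 0.00154) and -0.48 ± 0.14 in WT (adjusted p = 0.00836), but scaled to total reads by 0.10 (adjusted p = 0.524) and 0.17 (adjusted p = 0.293). The WT call was lost without the second 48 h library of WT (-0.40, adjusted p = 0.0737) and with voom on upper-quartile reads (-0.29, adjusted p = 0.0768).

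SIR3, the nucleosome-binding member of the SIR complex, was the member with the widest gap between strains in aged libraries. In mus81 it had log2 values of 8.34 and 8.35 at log phase, 8.98 and 8.80 at 24 h and 9.05 and 8.88 at 48 h. In WT it had 8.13 and 8.28 at log phase, 8.36 and 8.33 at 24 h and 8.53 and 8.27 at 48 h. All 4 aged mus81 libraries were above every other library, while in WT 48 h and log phase overlapped. The 48 h change was 0.62 ± 0.14 in mus81 (limma, adjusted p = 0.000992) and 0.19 ± 0.14 in WT (adjusted p = 0.233), and scaled to total reads 1.34 and 0.84 (adjusted p = 1.51e-07 and 7.61e-05). At 24 h it rose in mus81 by 0.55 ± 0.14 (adjusted p = 0.0033), with 0.14 ± 0.14 in WT (adjusted p = 0.421). The difference between the strains in the change did not pass, at 0.41 ± 0.19 for 24 h (adjusted p = 0.867) and 0.43 ± 0.19 for 48 h (adjusted p = 0.953).

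SIR3 is the only member on the right arm of chromosome XII beyond the rDNA, and many features there moved upward with age. The 335 features tested in that stretch had a median log2 change at 48 h of 0.93 in mus81 and 0.77 in WT, while features of the other chromosomes had 0.06 and 0.10. SIR3 rose less than most of them: 37.3% in mus81 and 30.1% in WT lay lower. Its 23 neighbours within 20000 bases had a median change of 0.75 in mus81, with 13 higher and 4 lower calls, and of 0.53 in WT, with 10 higher and 5 lower. The part of position in the SIR3 values was not tested.

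Because Sir2, Sir3 and Sir4 act in a complex, their transcripts were also set against each other within each library. A common factor per library does not change such ratios of recovered reads, while quantile normalization can. SIR3 stood at 1.47 to 1.90 reads per base for each of SIR2 in aged mus81 libraries and at 0.490 and 0.490 in its log-phase libraries. In WT the ratio was 0.707 to 1.18 in aged libraries and 0.364 and 0.477 at log phase. All aged libraries exceeded all log-phase libraries, and all 4 aged mus81 libraries exceeded all 4 aged WT libraries. SIR4 over SIR2 was 0.752 to 0.936 in aged mus81 libraries and 0.580 and 0.588 at log phase, and 0.729 to 0.890 in aged WT libraries and 0.487 and 0.555 at log phase. SIR1 over SIR2 was 0.419 to 0.817 in aged mus81 libraries and 0.131 and 0.213 at log phase, and 0.455 to 0.763 in aged WT libraries and 0.130 and 0.187 at log phase. Each of the 3 partners thus stood higher against SIR2 in aged than in log-phase libraries of its strain. Most transcripts did so, since 90.1% of features in mus81 and 90.4% in WT had a higher 48 h change than SIR2. HST1 over SIR2 was 2.73 to 3.45 in aged mus81 libraries and 2.14 and 2.12 at log phase. In WT it was 2.70 to 3.00 in aged libraries and 1.96 and 2.40 at log phase. NET1 over FOB1 did not separate the ages, with 1.80 to 2.22 in aged mus81 libraries and 1.82 and 2.04 at log phase, and 1.75 to 2.30 in aged WT libraries and 1.84 and 2.13 at log phase. HST3 over HST4 was 2.00 to 2.77 in aged mus81 libraries and 3.78 and 5.01 at log phase, and 1.85 to 3.09 in aged WT libraries and 2.89 and 3.75 at log phase, with overlap in WT.

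**Figure D2:**
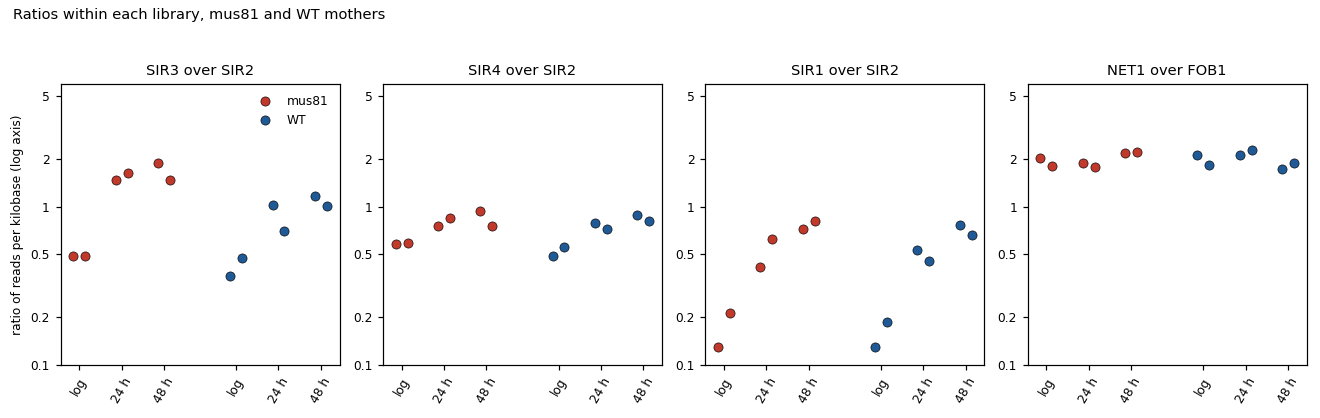
Ratio of reads per kilobase of 2 genes within a library (y axis, log scale) in mus81 (red) and WT (blue) mothers at log phase, 24 h and 48 h, 1 point per library. SIR3 over SIR2 is 1.47 to 1.90 in aged mus81, 0.707 to 1.18 in aged WT and at most 0.490 at log phase, while NET1 over FOB1 stays between 1.75 and 2.30 throughout.

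Between mus81 and WT at the same age, no member passed limma's test. At log phase 0.405% of features did, no member had an unadjusted p under 0.05, and 0 passed with voom, and 6 members had libraries that did not overlap, where 33.8% of features did not. At 24 h 0.93% of features passed, with 2 members at an unadjusted p under 0.05 and 0 with voom on upper-quartile reads, and 4 members did not overlap (40.3% of features). At 48 h 0.24% of features passed (0.03% higher, 0.21% lower), with 1 member at an unadjusted p under 0.05 and 0 with voom on upper-quartile reads, and 3 members did not overlap (35.9% of features). SIR3 was nearest, higher in mus81 by 0.55 ± 0.14 at 24 h (adjusted p = 0.0637) and 0.57 ± 0.14 at 48 h (adjusted p = 0.14), in 2 of 2 libraries each, and by 0.14 ± 0.14 at log phase (adjusted p = 0.998). At 48 h 97.7% of all features had a lower difference than SIR3, and at 24 h 92.8%. The daughter markers differed as well, with a median of -0.76 at 24 h, where 2 of 12 were called lower and 10 had an unadjusted p under 0.05, and of -0.59 at 48 h, where 1 was called lower and 9 had an unadjusted p under 0.05. Their part in the SIR3 values was not tested. NET1 at 24 h was lower in mus81 by a log2 difference of -0.38 ± 0.11 (adjusted p = 0.11). Scaled to total reads SIR3 passed at both ages, at 0.66 (adjusted p = 0.0273) at 24 h and 0.67 (adjusted p = 0.0465) at 48 h. The values that follow leave WT at 24 h with its shallowest library alone, of 1656535 reads. Without the first 24 h library of WT 3 members passed at 24 h, SIR3 at 0.56 (adjusted p = 0.0391), HST1 at -0.48 (adjusted p = 0.032) and NET1 at -0.43 (adjusted p = 0.0408).

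The region of SIR3 as a whole lay higher in aged mus81 than in aged WT. The 335 features to the right of the rDNA had a median log2 difference of 0.46 at 24 h and 0.27 at 48 h, against -0.03 and -0.02 on the other chromosomes and 0.01 in that stretch at log phase. SIR3 lay above 60.9% of them at 24 h and above 94% at 48 h. Of its 23 neighbours, with a median of 0.45 at 24 h and 0.32 at 48 h, 6 were called higher at 24 h and 0 at 48 h. No member passed in the test of the difference between strains in the change with age, at 24 h (0.015% of features) or at 48 h (0.12%). At each age 1 member, SIR3, had an unadjusted p under 0.05 and 0 passed with voom.

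In the translocation table each strain and age had 1 library, so the 2 strains served as replicates of age. FOB1 and SIR2 were lower and SIR1 was higher at 48 h, the directions seen in the mus81 table. The additive limma fit called 3 members at 48 h against log phase, 1 higher and 2 lower, where 40.4% of features passed (23.1% higher, 17.2% lower), and 1 member at 24 h, where 32.1% did. Neither count exceeds the share of all features. Between 48 h and 24 h no member and no feature at all passed (0% of features), with 0 members at an unadjusted p under 0.05 and 0 with voom, although NET1 passed without the 24 h translocation library (-1.58, adjusted p = 0.000868). Between the strains no member passed (0.015% of features), with 0 at an unadjusted p under 0.05 and 0 with voom, and NET1 passed without the 24 h library of either strain (1.49 in each case, adjusted p = 7.58e-06 without that of the control and 6.95e-06 without that of the translocation strain). At 48 h against log phase the count was 0 without the 48 h control, 1 without the 48 h translocation, 5 without the log-phase control and 6 without either 24 h library. At 24 h it was 0 without either 48 h library or the 24 h translocation library, 2 without the log-phase translocation library and 4 without the log-phase or the 24 h control library.

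FOB1 had log2 values of 7.81 at log phase, 6.47 at 24 h and 6.58 at 48 h in the translocation strain, and 7.46, 6.83 and 5.86 in the control. Both strains were lower when aged, and the 48 h change was -1.41 ± 0.33 (adjusted p = 0.0107). It was lost without the 48 h control library (-1.05, adjusted p = 0.213). SIR1 had 5.45, 6.63 and 6.63 in the translocation strain and 5.86, 6.32 and 6.66 in the control, a 48 h change of 0.98 ± 0.32 (adjusted p = 0.0389). That call was lost without the 48 h control library (0.99, adjusted p = 0.289), the log-phase (0.71, adjusted p = 0.149) or the 48 h translocation library (0.98, adjusted p = 0.261), and with quantile normalization (0.40, adjusted p = 0.418). SIR2 had 7.88, 7.37 and 7.34 in the translocation strain and 8.05, 7.20 and 7.14 in the control. Its 48 h change was -0.73 ± 0.25 (adjusted p = 0.0482), and -0.16 scaled to total reads (adjusted p = 0.528). It too was lost without the log-phase (-0.55, adjusted p = 0.176) or the 48 h control library (-0.63, adjusted p = 0.411) or the 48 h translocation library (-0.82, adjusted p = 0.246).

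HST3 was the member called at 24 h, with 7.83, 6.57 and 6.98 at log phase, 24 h and 48 h in the translocation strain and 7.84, 7.10 and 7.17 in the control. Its 24 h change was -1.0 ± 0.26 (limma, adjusted p = 0.0241), and it missed the threshold without the 48 h control library (-1.0, adjusted p = 0.0782) or the log-phase (-0.82, adjusted p = 0.0637), 24 h (-0.78, adjusted p = 0.11) or 48 h translocation library (-1.0, adjusted p = 0.0772). HST4 had 5.34, 6.09 and 6.34 in the translocation strain and 6.13, 6.16 and 6.32 in the control. HST2 had 7.69, 7.43 and 7.65 in the translocation strain and 6.95, 7.74 and 8.01 in the control. Its aged libraries were higher than log phase in the control only, and the 48 h change of 0.51 ± 0.32 did not pass (adjusted p = 0.243).

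SIR3 was not called in this table, while the median of the chromosome XII stretch that holds it was raised. It had 7.59, 7.48 and 7.37 at log phase, 24 h and 48 h in the translocation strain and 7.64, 7.90 and 7.31 in the control, a 48 h change of -0.27 ± 0.25 (limma, adjusted p = 0.426) that was 0.29 scaled to total reads (adjusted p = 0.311). The features to the right of the rDNA had a median change of 0.66 at 48 h and those of other chromosomes 0.16, and 20% of the stretch lay lower than SIR3. Where the breakpoint lies relative to SIR3 is not given in the sources used here. SIR4 had 8.49, 7.88 and 8.04 in the translocation strain and 8.31, 8.20 and 7.38 in the control, a 48 h change of -0.69 ± 0.28 (adjusted p = 0.0878).

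NET1, the longest of the members after SIR4 with 3570 bases, and HST1 differed most between the log-phase libraries. NET1 had 10.42, 8.28 and 8.62 in the translocation strain and 8.27, 9.04 and 7.78 in the control, from 1780 reads at log phase in the translocation strain and 366 in the control. HST1 had 9.0, 7.52 and 8.15 in the translocation strain and 7.97, 8.15 and 7.72 in the control. In the translocation strain both genes were lower in the aged libraries, while in the control the 24 h library lay above that of log phase. The 48 h change of NET1 was -1.14 ± 0.56 (limma, adjusted p = 0.14), and without the log-phase control library it was -2.19 (adjusted p = 0.000824). In that library long genes were low against the log-phase translocation library, and the part of this in the NET1 values was not tested.

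**Figure D3:**
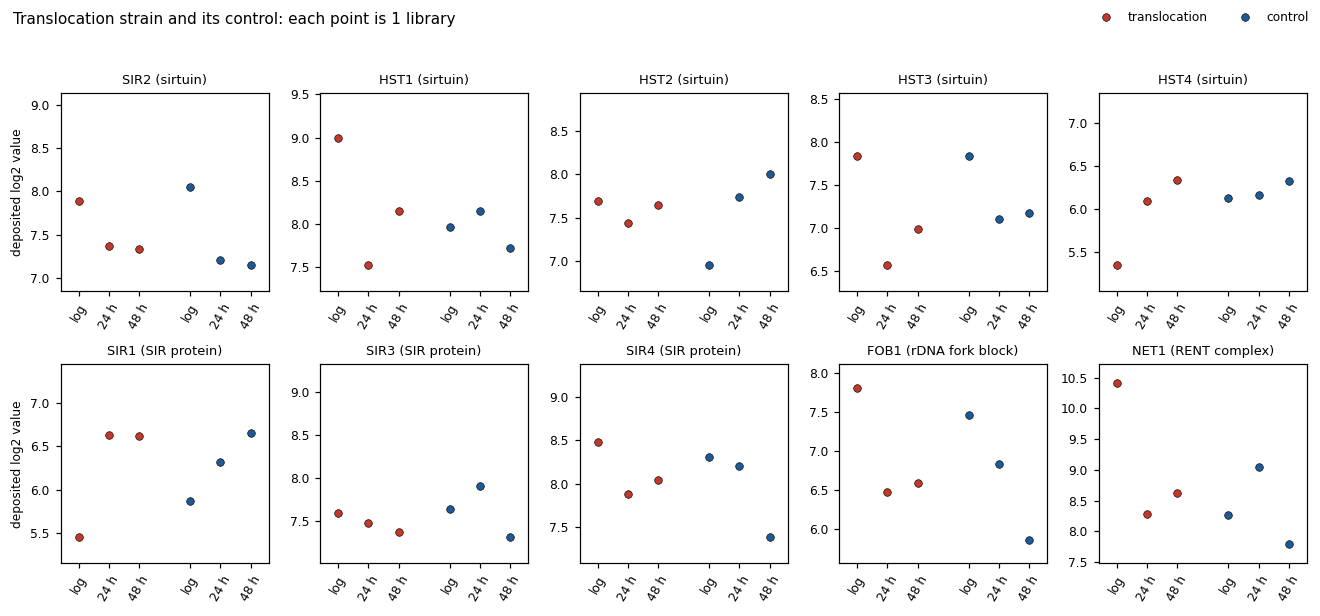
Deposited log2 value (y axis) of the 10 genes in the translocation strain (red) and its control (blue) at log phase, 24 h and 48 h, 1 library per point. SIR2, HST3 and FOB1 are lower and SIR1 is higher in the aged libraries of both strains, and NET1 at log phase differs most between strains, at 10.42 in the translocation strain and 8.27 in the control.

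The hst3 hst4 table shows the deletions and what the other 8 genes did without these sirtuins. HST3 had 3 and 2 reads at log phase in the mutant and 278 in its WT, 67.2-fold lower per total reads (95% exact interval 28.5 to 209), and 6 and 10 reads in aged mutant cells and 319 in aged WT, 41.6-fold lower (25.2 to 73.7). HST4 had 0 and 0 reads at log phase in the mutant and 90 in WT, at least 36.3-fold lower against a floor of 3 reads over the group. In aged cells it had 1 and 1 reads in the mutant and 87 in WT, a ratio of 90.8 (24.4 to 761). These intervals cover counting error only. In this table limma had 2 residual degrees of freedom, and the WT libraries were assumed to vary like the mutant pairs. The WT and first mutant libraries shared a sequencing lane, and the second mutant libraries were on another. The names of both WT libraries carry a batch tag that those of the mutant libraries lack. Its meaning is not given in the labels, so strain and such a batch cannot be told apart here.

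With age in hst3 hst4 cells HST2, SIR3 and SIR4 rose and FOB1 fell. Together with HST3, whose few reads remain after its deletion, 5 members were called between aged and log-phase libraries, 4 higher and 1 lower, where 52.2% of features passed (28.6% higher, 23.6% lower). Another 4 had an unadjusted p under 0.05, and 9 of the 10 had libraries that did not overlap, where 80.2% of features did not. The totals of 5 and 9 are close to those shares. The calls of SIR3, SIR4, FOB1 and HST3 were each lost without either aged library of the mutant, leaving 1 called member, and 9 members passed without either log-phase library of the mutant.

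HST2 had log2 values of 10.12 and 10.22 in aged hst3 hst4 cells and 8.45 and 6.97 at log phase, and 9.96 in aged WT and 9.92 in WT at log phase. Within this table the log-phase mutant libraries were the low ones, with 322 and 74 reads. The aged mutant had 1103 and 1242 reads, the aged WT 759 and the log-phase WT 1031. In RPKM the log-phase mutant had 47.0 and 17.4 and the log-phase WT 112. At log phase in the other tables HST2 was at 46.1 in WT, 44.8 in mus81, 43.8 in the translocation strain and 24.1 in its control. Whether the mutant was low or this WT library high was not tested. The change in the mutant was 2.46 ± 0.47 (limma, adjusted p = 0.0107), higher than that of 97.8% of features. Within the lane that held the first replicate it was 1.67, a value of 1 library against 1 with no test. The log-phase difference from WT was -2.21 ± 0.58 (adjusted p = 0.0569), -1.47 within the lane, and the difference in change from WT was 2.43 ± 0.82 (adjusted p = 0.112). Neither passed.

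SIR4 had 9.36 and 9.31 in aged mutant cells and 8.83 and 8.78 at log phase, and 9.33 in aged WT and 9.31 in WT at log phase. As with HST2, the log-phase mutant pair was low and the other 4 libraries lay together. The change was 0.53 ± 0.11 (limma, adjusted p = 0.0119), and 0.54 within the lane. It was lost without the first (0.50, adjusted p = 0.14) or the second aged library (0.56, adjusted p = 0.112). SIR3 had 9.51 and 9.44 in aged mutant cells and 9.0 and 9.12 at log phase, and 9.42 and 9.0 in aged and log-phase WT. Aged libraries were above log-phase libraries in mutant and WT, and the mutant's change of 0.42 ± 0.11 (adjusted p = 0.0284) was lost without the first (0.38, adjusted p = 0.242) or the second aged library (0.45, adjusted p = 0.18). It was also lost with the replicate number as a block (0.42, adjusted p = 0.0567), with median centring (0.27, adjusted p = 0.145) and with quantile normalization (0.38, adjusted p = 0.0515). The chromosome XII stretch to the right of the rDNA had a median change of 0.80 and the other chromosomes 0.05.

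FOB1 had 8.07 and 8.24 in aged mutant cells and 8.62 and 8.64 at log phase, and 8.35 and 8.76 in aged and log-phase WT. Aged libraries of both strains lay below log-phase libraries. The change of -0.48 ± 0.13 (limma, adjusted p = 0.0279) was lost without the first (-0.39, adjusted p = 0.265) or the second aged library (-0.56, adjusted p = 0.135), and scaled to total reads it was -0.23 (adjusted p = 0.176). SIR2 had 8.32 and 8.26 in aged mutant cells and 8.02 and 7.57 at log phase, and 8.58 and 8.5 in aged and log-phase WT. Its change of 0.50 ± 0.18 (adjusted p = 0.0706) did not pass, and was 0.30 within the lane. NET1 had 10.47 and 10.60 in aged mutant cells and 10.20 and 9.40 at log phase, and 10.77 and 10.86 in aged and log-phase WT, a change of 0.74 ± 0.27 (adjusted p = 0.0681) and of 0.28 within the lane. HST1 had 9.81 and 10.05 in aged mutant cells and 9.65 and 9.14 at log phase, and 9.93 and 10.15 in aged and log-phase WT. SIR1 had 7.82 and 7.83 in aged mutant cells and 7.44 and 7.52 at log phase, and 7.74 and 7.03 in aged and log-phase WT. In SIR2, HST1, HST2, NET1 and, by little, SIR4 the second log-phase mutant library was the lowest of the 6. Genes over 3000 bases, among them SIR4 and NET1, had a median change of 0.31 between aged and log-phase mutant libraries, and genes up to 1000 bases one of -0.33. For the mutant against WT at log phase these medians were -0.18 and 0.11, and for the difference in change from WT 0.39 and -0.36. The part of gene length in the values of this table was not tested.

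**Figure D4:**
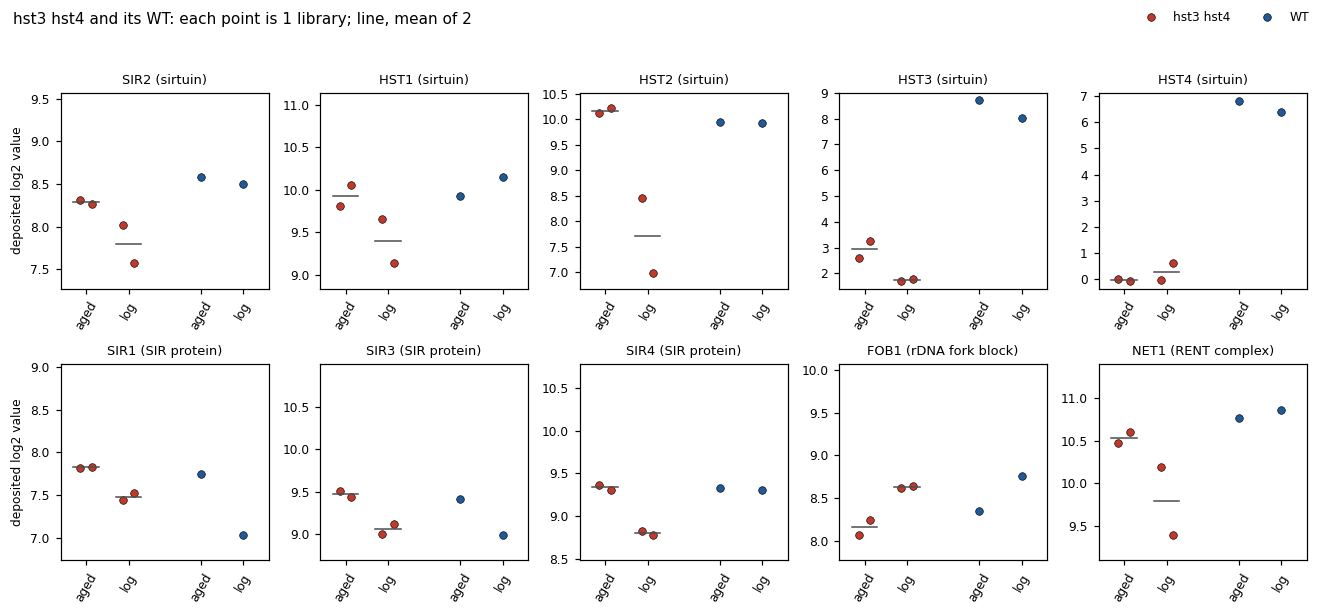
Deposited log2 value (y axis) of the 10 genes in hst3 hst4 (red) and its WT (blue), aged left of log phase, each point 1 library. Each line is the mean of 2 mutant libraries, and the single WT libraries have no line. HST3 and HST4 are near the floor in the mutant, and HST2 is at 8.45 and 6.97 in log-phase mutant libraries and at 9.92 or above in the other 4.

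Against WT at log phase the 2 deleted genes were called lower and no other member passed, where 17.1% of features did (8.73% higher, 8.36% lower). In all, 8 members had an unadjusted p under 0.05, all 10 did not overlap WT, where 84.7% of features did not, and voom called 4, HST2 and NET1 besides the deleted genes with upper-quartile reads and HST2 and SIR1 besides them with total reads. Apart from HST2, the nearest were SIR4 at -0.50 ± 0.13 (limma, adjusted p = 0.0559), NET1 at -1.06 ± 0.33 (adjusted p = 0.079), SIR2 at -0.71 ± 0.22 (adjusted p = 0.0839) and HST1 at -0.76 ± 0.25 (adjusted p = 0.0889). Without either log-phase mutant library 8 members passed. Against aged WT the 2 deleted genes alone were called (16.9% of features), and the differences of the other 8 lay between -0.29 and 0.22. Without the first aged mutant library 0 were called there, and without the second 1. No member was called in the difference in change (10.3% of features), 2 had an unadjusted p under 0.05, voom on upper-quartile reads called HST2 (2.22, adjusted p = 0.0386), and without the first or the second log-phase mutant library 5 and 4 were called.

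In the WT of this table SIR2 and NET1 stood at nearly the same value in both libraries. With 1 library of each age there is no test, and aged minus log-phase log2 values were 0.08 for SIR2, -0.22 for HST1, 0.03 for HST2, 0.02 for SIR4 and -0.09 for NET1, where the median feature was at 0.02. They were 0.71 for SIR1, 0.42 for SIR3 and -0.41 for FOB1, the directions of SIR1 and FOB1 in the other tables. HST3 was at 0.67 and HST4 at 0.42. The log-phase library of this WT had the highest daughter-marker level of the table, 5988 RPM, where its aged library had 2843 and the mutant had 2428 to 2462 when aged and 2336 to 2665 at log phase. By gene, 7 of the 12 markers fell and 1 rose in the mutant when aged, with a median of -1.0, and scaled to total reads 7 fell and 3 rose. Against WT 11 were lower in the mutant at log phase and 8 in aged cells, and scaled to total reads 9 and 7 were lower. The markers' part in the values of this table was not tested.

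The proteins that work with the members were followed by lists. At 48 h 30.7% of all features were called higher and 29.5% lower in mus81, and 33.1% and 30.1% in WT. Scaled to total reads, 4225 of 6669 rose and 777 fell in mus81, and 3963 and 900 in WT. In aged hst3 hst4 cells 28.6% rose and 23.6% fell, and scaled to total reads 2667 and 1052 of 6613 did. In the translocation table at 48 h 23.1% rose and 17.2% fell, and scaled to total reads 2846 and 533 of 6651 did. No list was tested as a set. In the list of 25 silencing partners, 12 fell and 2 rose at 48 h in mus81, and 12 fell and 3 rose in WT, but scaled to total reads 2 fell and 13 rose in mus81 and 3 fell and 8 rose in WT, so the list's direction follows the scale. The median change was -0.28 in mus81 and -0.34 in WT, where all features had 0.11 and 0.15. RAP1, the silencer and telomere binding protein, fell under both scalings, at -1.51 ± 0.12 in mus81 (limma, adjusted p = 1.14e-07) and -1.72 ± 0.12 in WT (adjusted p = 3.11e-08), and scaled to total reads at -0.79 and -1.06. NAT1, a subunit of the acetyltransferase that modifies the Sir3 N-terminus, fell, at -1.41 ± 0.13 in mus81 (adjusted p = 2.59e-07) and -1.38 ± 0.13 in WT (adjusted p = 2.48e-07), and scaled to total reads at -0.69 and -0.72. In aged hst3 hst4 cells 8 of the 25 rose and 3 fell, led by ZDS1 at 1.79 ± 0.33 (adjusted p = 0.00938) and ASF2 at 1.73 ± 0.31 (adjusted p = 0.00849). At 48 h in the translocation strain and its control 8 fell and 0 rose, and scaled to total reads 2 fell and 3 rose.

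Of 13 tested genes of RENT, cohibin and the early anaphase release of Cdc14, 4 rose and 4 fell in mus81 and 4 rose and 5 fell in WT at 48 h, and scaled to total reads 10 rose and 0 fell in mus81 and 7 rose and 1 fell in WT. CDC14, the phosphatase held by Net1, was lower, at -0.97 ± 0.13 in mus81 (limma, adjusted p = 1.27e-05) and -1.03 ± 0.13 in WT (adjusted p = 6.41e-06), and scaled to total reads at -0.25 (adjusted p = 0.0828) and -0.37 (adjusted p = 0.0184). BNS1, a relative of the mitotic exit activator Spo12, rose by 1.60 ± 0.20 in mus81 (adjusted p = 5.43e-06) and 1.83 ± 0.20 in WT (adjusted p = 1.27e-06). Of 16 genes of the fork barrier and rDNA copy number, 3 rose and 6 fell in each strain, and scaled to total reads 12 rose and 1 fell in mus81 and 8 rose and 1 fell in WT. HMO1, an HMG-box protein of the rDNA, fell under both scalings, at -1.70 ± 0.18 in mus81 (adjusted p = 1.13e-06) and -1.80 ± 0.18 in WT (adjusted p = 5.59e-07). TOP3, the topoisomerase that acts with Sgs1, rose by 1.01 ± 0.26 in mus81 (adjusted p = 0.00404) and 1.01 ± 0.26 in WT (adjusted p = 0.00388).

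Of 8 genes that place or read the acetyl mark that Hst3 and Hst4 remove, 3 rose and 1 fell in mus81 and 1 rose and 3 fell in WT at 48 h, and scaled to total reads 6 rose and 0 fell in mus81 and 4 rose and 0 fell in WT. ASF1, the histone chaperone that presents H3 for this mark, rose in mus81 by 0.74 ± 0.15 (limma, adjusted p = 0.000778). In aged hst3 hst4 cells, where the erasers are missing, 2 of the 8 rose and 1 fell, led by SPT10 at 1.07 ± 0.16 (adjusted p = 0.00538), and scaled to total reads 3 rose and 0 fell. Of 15 subunits of the other histone deacetylases, 2 rose and 7 fell in each strain at 48 h, and scaled to total reads 8 rose and 1 fell in mus81 and 7 rose and 2 fell in WT. HDA1, a catalytic subunit, fell under both scalings, at -1.15 ± 0.16 in mus81 (adjusted p = 1.9e-05) and -1.10 ± 0.16 in WT (adjusted p = 2.72e-05).

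Sirtuins need NAD, and of 18 genes of NAD supply 8 rose and 4 fell in each strain of the mus81 table at 48 h. Scaled to total reads 14 rose and 1 fell in mus81 and 13 rose and 0 fell in WT. Under that scaling 4225 of all 6669 features rose in mus81 and 3963 in WT. BNA2, the first enzyme of NAD synthesis from tryptophan, had log2 values of 7.57 and 7.76 at 48 h and 4.81 and 4.76 at log phase in mus81, and 7.40 and 7.27 at 48 h and 3.67 and 2.92 at log phase in WT. It rose by 2.88 ± 0.28 in mus81 (limma, adjusted p = 4.85e-07) and 4.04 ± 0.28 in WT (adjusted p = 2.24e-08), from 9 to 51 log-phase reads. PNC1, which clears the sirtuin inhibitor nicotinamide, rose by 2.77 ± 0.43 in mus81 (adjusted p = 5.07e-05) and 3.28 ± 0.43 in WT (adjusted p = 8.66e-06). In aged hst3 hst4 cells 6 rose and 6 fell, and scaled to total reads 11 rose and 4 fell, with BNA2 at 3.15 ± 0.30 on the authors' scale (adjusted p = 0.00186). At 48 h in the translocation strain and its control 7 rose and 1 fell, with BNA2 at 4.35 ± 0.40 (adjusted p = 0.000322).

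Middle sporulation genes, which Hst1 represses with Sum1, had calls in 1 direction in each strain. Of 18, 15 rose and 0 fell in mus81 and 17 rose and 0 fell in WT at 48 h, where 30.7% and 33.1% of features rose, and scaled to total reads all 18 rose in both. The median change was 2.19 in mus81 and 2.87 in WT. In aged hst3 hst4 cells 12 rose and 0 fell, and at 48 h in the translocation strain and its control 14 rose and 0 fell. Most were near the floor at log phase, so reads say more than folds. CDA1, a chitin deacetylase of the spore wall, had 239 and 257 reads at 48 h and 24 and 10 at log phase in mus81, and 157 and 167 at 48 h and 1 and 2 at log phase in WT. SPS2, a spore wall protein, had 102 and 80 reads at 48 h and 1 and 2 at log phase in mus81, and 65 and 75 at 48 h and 1 and 1 at log phase in WT. These genes were chosen with earlier results of these data known, so their direction is no independent evidence. HST1 fell in both strains on the authors' scale and not scaled to total reads.

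At the loci that Sir proteins silence, reads of the cassettes cannot be read cleanly, because the genes of the silent cassettes and of the active MAT locus share sequence. Of 6 features, 3 rose and 0 fell in mus81 and 4 rose and 0 fell in WT at 48 h, and scaled to total reads 5 rose and 0 fell in each. HMRA1 at the a cassette changed by 0.77 ± 0.19 in mus81 (limma, adjusted p = 0.0024), and HMLALPHA2 by 0.71 ± 0.24 in mus81 (adjusted p = 0.0207) and 0.97 ± 0.24 in WT (adjusted p = 0.00281). HMLALPHA1 had 0 to 9 reads in every library, and MATALPHA1 had 0 to 10. In aged hst3 hst4 cells 0 of the 6 passed limma's test, with 2 at an unadjusted p under 0.05, and in the translocation table at 48 h 0 passed, with 2 at an unadjusted p under 0.05. Scaled to total reads with voom, 2 and 4 rose.

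The transcripts with the profile nearest to a member were taken by Pearson correlation over the 12 libraries of the mus81 table, among 5003 features with a mean above the 25th percentile. These libraries share 3 ages and 2 strains, so such values describe the shared course of age. All correlations here are of log2 values on the authors' scale, and none was computed on reads scaled to total reads. Under that scaling HST1 and SIR4 of mus81 turn upward at 48 h while SIR2 still falls. For SIR2 the nearest were CET1 at 0.984, NUP100 at 0.981 and NSP1 at 0.98, and 910 features exceeded 0.9. Over the 6 libraries of the translocation table the same pairs had 0.989, 0.505 and 0.829. For FOB1 the nearest were PCT1 at 0.991, TIF35 at 0.99 and TRM44 at 0.989, with 0.89, 0.93 and 0.825 in the translocation table, and 1240 features exceeded 0.9. For HST2 they were NTG1 and COR1 at 0.957 and YBR071W at 0.95, with 0.577, 0.503 and 0.372 in the translocation table, and 115 features exceeded 0.9. For HST3 they were CRZ1 at 0.95, SAC3 at 0.943 and the member SIR4 at 0.935, with 0.748, 0.558 and 0.573, and 13 features exceeded 0.9. HST2 and HST3 thus had few close companions. In the translocation table those of HST2 were at most at 0.577 and those of HST3 at most at 0.748, and NUP100 with SIR2 was at 0.505. Among members, SIR2 went with HST1 at 0.975, SIR4 at 0.961, NET1 at 0.959 and FOB1 at 0.941, and against HST2 at -0.796 and SIR1 at -0.779. Over the 6 libraries of the translocation table SIR2 had 0.474 with HST1, 0.719 with SIR4, 0.413 with NET1 and 0.872 with FOB1, and -0.735 with HST2 and -0.846 with SIR1.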

How the data were processed

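Each table held log2 values that the authors had scaled and deposited, 1 column per library. The submitters' processing notes name Trim Galore 0.6.6, HISAT2 2.1.0 and build R64. Which program counted reads, with which strand setting, and how values were scaled is not given in the sources used here. Taking each library's minimum as a feature without reads, entered as 0.9, gave whole reads within 0.02 for all values below 1000 reads, and these recovered reads gave depth, RPKM, ratios and voom fits. Because the tables were scaled separately, each was fitted alone. No column of samples was left out.

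A feature was tested if at least 2 libraries held it above the floor, which left 6669 features for mus81 and WT, 6651 for the translocation strain and control, and 6613 for hst3 hst4 and WT. The log2 values were fitted with limma 3.58.1 in R 4.3.3 (lmFit, eBayes with a variance trend), with 6 residual degrees of freedom for mus81 and 2 for each of the others. The translocation fit had strain and age as additive terms. Benjamini-Hochberg adjustment ran over all features of a comparison, and a call is an adjusted p under 0.05. Every adjusted p printed comes from limma. Tables were handled with Python 3.11.15, pandas 2.3.3 and numpy 2.4.6. The fits were tested on simulated data. Counts of 2 libraries or fewer per group limit the precision, and depth sets it for HST4 and SIR1.

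All 10 genes are named whatever their values, with up to 3 called genes of largest change per list and the 3 most similar profiles for SIR2, FOB1, HST2 and HST3. The genes and lists were chosen with earlier results of these data known. Alternatives were other scalings, filters, no variance trend, voom, blocks, the groups compared alone, the shared lane and leaving out each library. Scaling to total reads was chosen after seeing the data.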

Additional observations from a re-analysis of the deposited data

Results flagged for a closer look

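Between the translocation strain and its control, 5 changes with age had opposite signs. Each rests on 1 library per strain and age, and none of these differences was tested. At 24 h against log phase, NET1 was at -2.14 in the translocation strain and 0.77 in the control, a difference of -2.91, and HST1 at -1.48 in the translocation strain and 0.19 in the control, a difference of -1.67. HST2 was at -0.26 in the translocation strain and 0.79 in the control, a difference of -1.05, and SIR3 at -0.11 in the translocation strain and 0.26 in the control, a difference of -0.37. At 48 h against log phase HST2 was at -0.04 in the translocation strain and 1.06 in the control, a difference of -1.1. All of them draw on the log-phase pair, in which genes over 3000 bases of the control had a median of -0.61 against the translocation library. In the 24 h pair the same median was 0.29, so the control shifted the other way. The part of gene length and of any 1 library in these differences was not tested.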

How the results depend on the processing

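Of 2612 values of members under the alternatives, 2428 counted as unchanged (139 of them, with no call either time, had another sign). Of the others, 112 gained a call, 59 lost one, 8 moved and 5 reversed. Unchanged meant staying on the same side of the threshold with no called change of sign. Within the shared lane no p-value was possible, so values there were held against the SE of the main fit. Those inside that SE counted as unchanged, and the 8 that moved lay outside it. Of 258 counts of called members, 214 stayed within 1.5 times and 44 did not. All 5 reversals came with reads scaled to total reads, an alternative chosen after seeing the data, and scaling by its construction shifts all features: HST3 and SIR4 in WT at 48 h stood at 0.44 and 0.17, and HST1, HST3 and SIR4 in mus81 at 48 h at 0.15, 0.32 and 0.10. Under it the median of all features at 48 h was 0.83 in mus81 and 0.80 in WT, and 84.5% and 81.5% of calls were higher, in place of 51% and 52.4%. Taken relative to the median of all features, all 42 called changes of members kept their sign under every scaling. Other counts that moved, with the cause not tested, were: for WT at 24 h, 3 with quantile normalization; for WT between 48 h and 24 h, 3 with quantile normalization, 2 without the features under the 25th percentile; for mus81 between 48 h and 24 h, 2 with total reads; for mus81 against WT, 1 at 24 h and 1 at 48 h with total reads. For hst3 hst4 against WT, log phase gave 4 with voom under either scaling and 0 without those features, aged cells 0 without those features, and the difference in change 1 with voom on upper-quartile reads. For the translocation strain and its control, 24 h gave 2 with median centring and 3 with voom on upper-quartile reads, and 48 h gave 5 with median centring and 1 without the variance trend.

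Leaving out each library in turn gave 4 to 5 called members in WT at 24 h, 6 to 7 in WT at 48 h, 1 to 4 in WT between 48 h and 24 h, 7 to 7 in mus81 at 24 h, 8 to 9 in mus81 at 48 h and 0 to 3 for mus81 against WT at 24 h. It gave 1 to 9 for hst3 hst4 aged against log phase, 8 to 8 and 0 to 1 against WT at log phase and aged, 0 to 5 for the difference in change, and for the translocation strain and its control 0 to 4 at 24 h, 0 to 6 at 48 h, 0 to 1 between 48 h and 24 h and 0 to 1 between strains. In the hst3 hst4 and translocation tables this left 1 residual degree of freedom. A mutant library left alone was assumed to vary like the others.

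Whether replicate numbers pair the libraries was not settled. Over 15 pairs of groups of the mus81 table the deviations correlated at -0.135 to 0.563, with a median of 0.088. Of these, 10 were over 0 and 6 over 0.1, and the value was -0.019 in the hst3 hst4 table. Library names of the mus81 table also carry the tags A_41 and A_42, which cross the replicate numbers and are not explained. Paired by tag, the correlations were -0.32 to 0.563, with 8 over 0 and 4 over 0.1. With the replicate block, 2 members were called in WT between 48 h and 24 h, 1 for mus81 against WT at 24 h and 1 in the hst3 hst4 difference in change, and SIR3 in hst3 hst4 missed the threshold. Depth limits HST4 and SIR1, with 40 to 121 and 46 to 192 reads per library in the mus81 table.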
